A study of Mus musculus with 30 samples.

Results

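The 10 topoisomerase and DNA-break genes were followed across medullary thymic epithelial cells (mTECs): Top1, Top2a, Top2b, Top3a, Top3b, Prkdc, Xrcc5, Xrcc6, Parp1 and Tdp1. They were taken as a list of 10 named genes, 10 of 55011 genes in the mTEChi count tables and 10 of 35999 gene symbols in the Aire-GFP+ tables, and all 10 had counts in every library. Of the 30 samples of the series, 21 were used here: 16 mTEChi libraries in 8 groups of 2, and 5 Aire-GFP+ libraries. Every mouse was a female C57BL/6J aged 4 to 6 weeks, and each library was made from 1000 sorted cells. The Aire-GFP+ cells were untreated WT (3 libraries) or untreated Aire-KO (2 libraries). The mTEChi cells, the label for mTECs with high surface MHC class II, came from WT or Aire-KO mice injected intraperitoneally with PBS or spermidine. Further mTEChi groups came from WT mice injected in the same way with DMSO or topotecan, and from uninjected mice carrying Foxn1-cre with Nfe2l2+/+ or with Nfe2l2 fl/fl. Foxn1-cre was thus present in both Nfe2l2 groups, and this Cre is active in thymic epithelium and not in mTECs alone. The sources used here state neither doses, nor injection schedules, nor the structure of the Aire-KO allele. Nothing in the labels ties replicate libraries to separate animals, so p-values measure only the spread between these libraries, which may be technical.

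Topoisomerases relax or untangle DNA by cutting it and rejoining it. TOP1 and the TOP3 enzymes cut 1 strand and the TOP2 enzymes cut both, and the cut is held by a covalent bond between the enzyme and DNA. When the cut is not rejoined, TDP1 cleaves the TOP1-DNA bond, PARP1 senses the break and marks it with poly(ADP-ribose), and the Ku heterodimer (XRCC5, also called Ku80, and XRCC6, also called Ku70) recruits the kinase DNA-PKcs (Prkdc) to double-strand ends. AIRE, the regulator that lets mTECs express genes of peripheral tissues, is known to associate with TOP1, TOP2, DNA-PK, Ku and PARP1, and topotecan is a drug that traps TOP1 on DNA.

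In GRCm38 (mm10), Top1 lies on chromosome 2 at 160645888 to 160722764 and Top2a on chromosome 11 at 98992943 to 99024189. Top2b lies on chromosome 14 at 16365179 to 16435462, Top3a on chromosome 11 at 60740058 to 60777365 and Top3b on chromosome 16 at 16870736 to 16892990. Prkdc was annotated on chromosome 16 at 15637866 to 15842235, Xrcc5 on chromosome 1 at 72307421 to 72394952 and Xrcc6 on chromosome 15 at 81987835 to 82040085. Parp1 was annotated on chromosome 1 at 180568924 to 180601254 and Tdp1 on chromosome 12 at 99884517 to 99955219. Exons of 3 of these genes overlap exons of a protein-coding gene on the opposite strand: Rarb for Top2b, Vpreb1 for Top3b and Desi1 for Xrcc6. The library protocol keeps no strand, so reads from such a shared stretch cannot be told apart. In CPM (counts relative to the library total after TMM scaling), Rarb stayed at or under 5.96 and Vpreb1 at or under 2.32 in the mTEChi libraries, whereas Desi1 ran from 10.7 to 55.1 CPM.

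The 4 promoters printed next are of members whose values differed between groups in the sections that follow, or that stood out in the motif search. Each runs from 250 bases before to 50 bases after the annotated start, 5′ to 3′ on the gene's strand, from RefSeq's table of GRCm38.p6. RefSeq entries were matched for 8 of the 10 members. Capitals mark matches, on either strand, to the searched motifs CCAAT (the NF-Y box), TTTGAA (the core of the cell cycle element CHR), CGCGCG and CACACACA (alternating purine-pyrimidine runs of the kind that can adopt Z-DNA) and TTTCGCGC (an E2F site).
Top2a (chr11:99024140-99024439, minus strand): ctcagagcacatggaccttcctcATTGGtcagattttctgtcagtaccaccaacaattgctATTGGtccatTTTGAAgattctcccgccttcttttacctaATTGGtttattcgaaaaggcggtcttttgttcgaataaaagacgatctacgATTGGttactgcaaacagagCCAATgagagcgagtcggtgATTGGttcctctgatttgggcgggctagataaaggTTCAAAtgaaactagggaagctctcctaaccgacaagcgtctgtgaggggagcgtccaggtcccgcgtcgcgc
Top2b (chr14:16364956-16365255, plus strand): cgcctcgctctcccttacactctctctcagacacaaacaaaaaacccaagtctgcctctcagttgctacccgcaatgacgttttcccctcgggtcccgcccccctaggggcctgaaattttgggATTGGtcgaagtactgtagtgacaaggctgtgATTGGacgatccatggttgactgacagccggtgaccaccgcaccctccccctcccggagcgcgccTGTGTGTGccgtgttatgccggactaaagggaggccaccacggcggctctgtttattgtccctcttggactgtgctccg
Parp1 (chr1:180568641-180568940, plus strand): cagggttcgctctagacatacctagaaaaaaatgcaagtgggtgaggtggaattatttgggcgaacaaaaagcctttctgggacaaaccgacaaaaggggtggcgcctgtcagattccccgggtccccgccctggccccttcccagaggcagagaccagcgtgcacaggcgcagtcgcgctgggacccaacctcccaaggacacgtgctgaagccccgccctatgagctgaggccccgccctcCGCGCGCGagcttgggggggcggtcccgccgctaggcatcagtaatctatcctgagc
Tdp1 (chr12:99884268-99884567, plus strand): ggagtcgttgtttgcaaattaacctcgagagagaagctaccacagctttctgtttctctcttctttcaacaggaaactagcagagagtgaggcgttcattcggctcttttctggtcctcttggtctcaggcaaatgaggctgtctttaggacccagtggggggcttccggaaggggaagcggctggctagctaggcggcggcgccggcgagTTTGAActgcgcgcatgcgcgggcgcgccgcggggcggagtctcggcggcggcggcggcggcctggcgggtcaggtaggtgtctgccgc
Top2a, the isoform of dividing cells, held 6 CCAAT matches and 2 TTTGAA matches. CCAAT occurred at least once in 5 of the 8 member promoters and in 37.4% of 32851 RefSeq promoters of the same length, but 6 or more matches were found in 0.079% of them. The CGCGCG search matched Parp1, at 2 overlapping positions of 1 run, and 11.3% of all promoters. CACACACA was found once in Top2b and in 4.09% of all promoters, TTTGAA once in Tdp1 and in 17.9% of all, and TTTCGCGC in 0 of the 8 and in 0.323% of all. These matches describe the letters in the window and not factor binding.

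Library totals were 2.03 to 5.72 M counts in mTEChi and 6.62 to 12.7 M (M, mega) in Aire-GFP+ cells. Epithelial and mTEC genes were present throughout, with Epcam at 592 to 1217 CPM and H2-Aa at 4146 to 12601 CPM in mTEChi. Cd3e of T cells did not exceed 16.9 CPM, Cd79a of B cells 23.3 and Itgax of dendritic cells 32.2, while fibroblast Col1a1 reached 151 CPM. Aire checks no label at the gene level: it was read at 1603, 1686 and 1671 CPM in Aire-GFP+ WT and at 1508 and 1774 in Aire-KO, and in PBS mTEChi at 1621 and 1638 in WT and 5075 and 4156 in Aire-KO. Nfe2l2 was likewise read at 90.7 and 91.4 CPM in Nfe2l2+/+ and 105 and 86.6 in Nfe2l2 fl/fl. In these bulk libraries, fewer cells of a type and less RNA per cell cannot be told apart. The libraries carry no molecular identifiers.

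The 10 genes were expressed at unlike levels. Per kilobase of exon, the median over the 16 mTEChi libraries was highest for Parp1 (17.7 CPM per kb), followed by Top3b (14.0), Top2a (13.9), Tdp1 (11.4), Xrcc5 (10.5), Xrcc6 (9.59), Top1 (7.26), Top3a (4.96), Prkdc (3.39) and Top2b (1.85). The ranges of neighbours in this order overlapped, for example 9.44 to 17.2 CPM per kb for Top3b and 7.23 to 30.6 for Top2a. Exon length here merges the exons of all annotated transcripts of a gene, and the order can depend on it. It was 10.4 kb for Top1 and 2.555 kb for Xrcc5. The effective lengths from kallisto in Aire-GFP+ WT were 1.85 to 2.17 kb for Top1 and 2.35 kb for Xrcc5. Other lengths were not tried for mTEChi. In Aire-GFP+ WT cells the mean TPM, which also corrects for length, put Tdp1 first (58.4 ± 2.69, SD, n = 3), then Parp1 (39.6 ± 0.645), Top3b (36.5 ± 5.14), Top2a (33.5 ± 6.01), Top1 (32.5 ± 4.66) and Xrcc6 (29.1 ± 3.43). Top2b (8.38 ± 1.49), Xrcc5 (8.07 ± 2.14), Top3a (4.08 ± 1.42) and Prkdc (1.42 ± 0.231) followed at lower levels. From Parp1 to Xrcc6, adjacent genes did not differ beyond their spread, nor did Top2b from Xrcc5, whereas Tdp1 stood above Parp1 and Xrcc6 above Top2b by more than it. Within mTEChi, Top2b varied most (highest over lowest library 4.50, from 17.0 to 76.5 CPM), and Xrcc6 least (1.70, from 30.1 to 51.3 CPM).

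**Figure D1:**
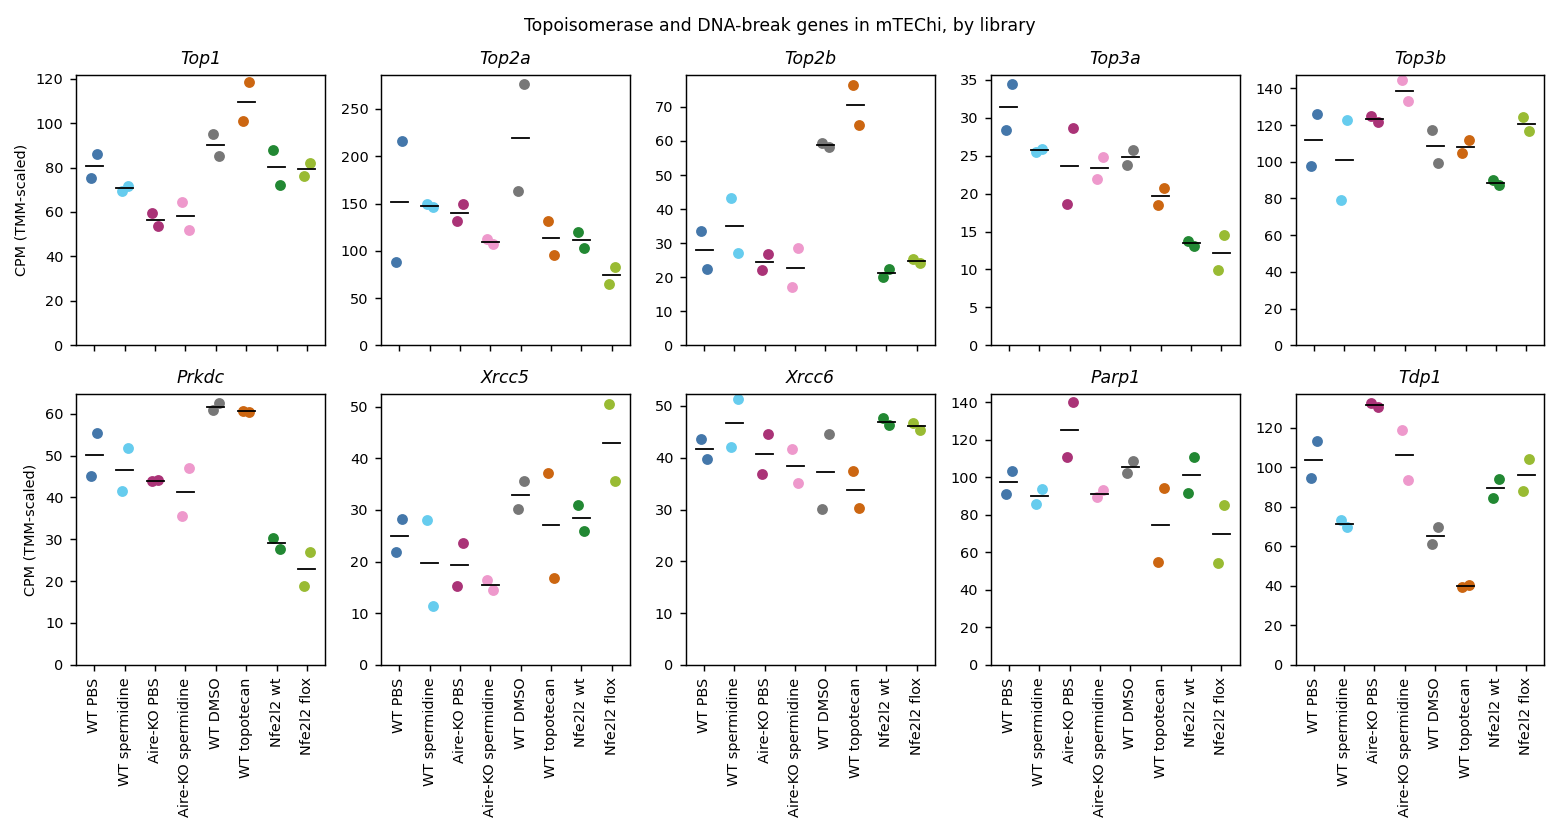
CPM (TMM-scaled, linear axes from 0) of each gene in the 16 mTEChi libraries, 2 points per group with a line at the mean. Tdp1 was lowest in the 2 topotecan libraries (39.4 and 40.1 CPM) and highest in the 2 PBS Aire-KO libraries (132 and 130), and Top2b was highest in the DMSO and topotecan libraries.

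Untreated or vehicle-treated WT groups of the 3 mTEChi experiments differed among themselves. Top2b, the TOP2 isoform present in non-dividing cells, stood at 59.3 and 58.3 CPM with DMSO, at 33.5 and 22.3 with PBS and at 20.2 and 22.6 in Nfe2l2+/+ mice. Prkdc stood at 60.8 and 62.5, 45.2 and 55.3, and 30.4 and 27.7 CPM in the same order. Top3a, which decatenates DNA with RMI1 and BLM, was at 23.8 and 25.8, 28.4 and 34.4, and 13.8 and 13.03 CPM. Experiment, vehicle, injection and, for the Nfe2l2+/+ mice, Foxn1-cre cannot be told apart here, and comparisons were made only within an experiment.

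Loss of Aire in Aire-GFP+ cells went with a rise of Tdp1 and a fall of Top3a and, on the count scale, a rise of Top2b and a fall of Parp1. Of the 10 genes, 2 were called higher and 2 lower with edgeR's quasi-likelihood test (adjusted p under 0.05). Over all 17923 genes tested, 41.3% were called, 19.0% higher and 22.3% lower, so the share of members called is close to that of all genes. The members' median log2 fold change was -0.24, against -0.12 over all genes.

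Among the topoisomerases, Top3a was read at 11.5, 16.3 and 8.03 CPM in WT and at 3.93 and 2.56 CPM in Aire-KO. Both Aire-KO libraries lay under all 3 WT libraries. The change was 3.70-fold (log2 -1.89, SE 0.424, adjusted p = 0.00901), on 27 to 185 counts per library. Without Aire-KO replicate 2 the call was lost (log2 -1.59, adjusted p = 0.0638).

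Top2b was read at 22.1, 18.2 and 22.3 CPM in WT and 33.8 and 28.3 in Aire-KO, with no overlap (log2 0.57, SE 0.191, adjusted p = 0.0417). The call was lost on leaving out any 1 of the 5 libraries (log2 0.46 to 0.71, adjusted p 0.0522 to 0.195). The rise did not extend to TPM, at 7.11, 8.02 and 10.01 in WT and 5.77 and 5.65 in Aire-KO. TPM corrects for length and, unlike CPM here, carries no TMM scaling. With library totals alone as the scaling, the count change was log2 0.18. An offset for the effective length that kallisto gave each library turned the log2 fold change to -0.06 (adjusted p = 0.854).

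Top1 was lower in both Aire-KO libraries than in all WT libraries but was not called: 64.3, 57.6 and 55.4 CPM in WT against 52.95 and 49.8 in Aire-KO (log2 -0.20, SE 0.14, adjusted p = 0.28). Its TPM stood further apart, at 37.9, 30.2 and 29.4 in WT and 12.9 and 15.99 in Aire-KO. With the effective-length offset Top1 was called lower (log2 -0.68, adjusted p = 0.0257). By isoform, the coding transcript Top1-201 had a mean of 15.97 ± 0.627 TPM in WT and 10.7 ± 0.907 in Aire-KO. The retained-intron transcript Top1-204 had 9.63 ± 2.03 and 0.783 ± 0.707. CPM and TPM also differ in TMM scaling, and the source of the gap between them was not tested.

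Top2a was read at 69.7, 61.3 and 83.6 CPM in WT and at 67.6 and 36.2 in Aire-KO, so that 1 Aire-KO library lay among the WT libraries (log2 -0.47, SE 0.26, adjusted p = 0.183). It was called lower without Aire-KO replicate 1 (log2 -0.97, adjusted p = 0.0227) and without the low-count filter (log2 -0.46, adjusted p = 0.0333). Top3b, which also acts on RNA, gave 50.5, 69.0 and 69.0 CPM in WT and 59.1 and 66.8 in Aire-KO (log2 0.00, SE 0.173, adjusted p = 0.994). Within Top3b, however, the coding transcript Top3b-219 fell from 12.1 ± 2.39 to 2.96 ± 0.444 TPM (log2 -1.65, SE 0.258, adjusted p = 0.02 over 38620 transcripts).

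**Figure D2:**
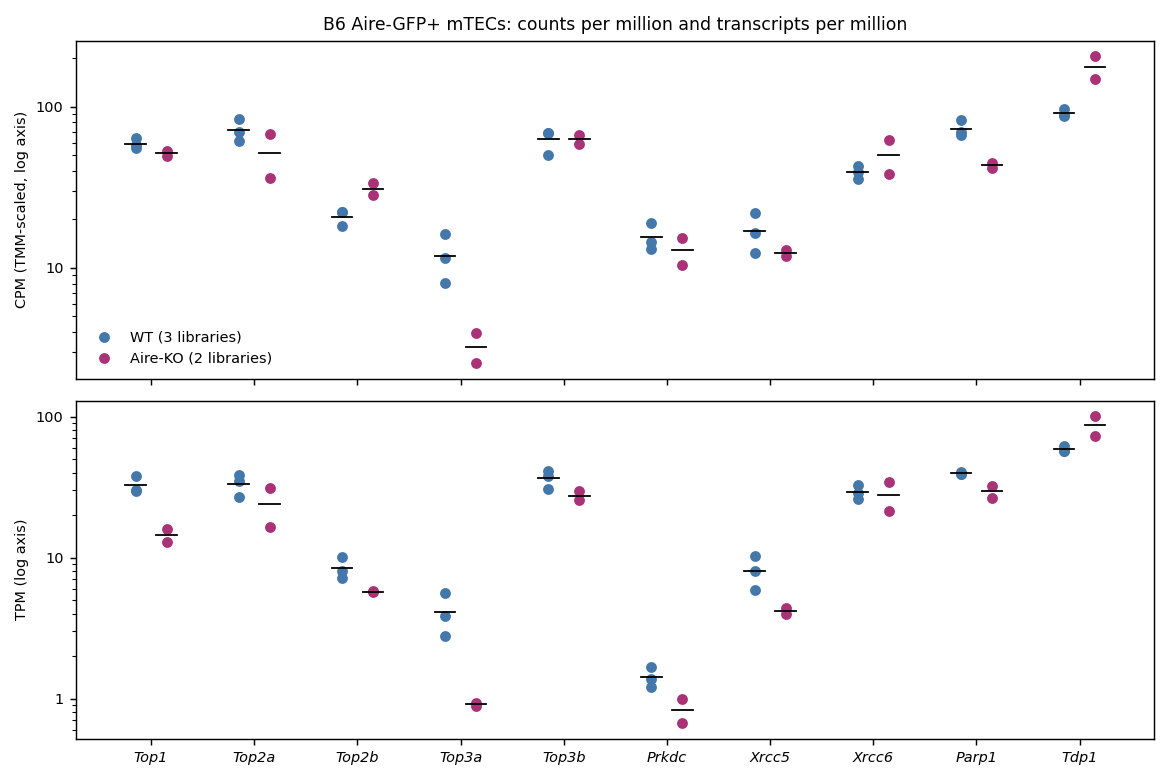
CPM (top) and TPM (bottom), both on log axes, of the 10 genes in the 3 WT and 2 Aire-KO libraries of Aire-GFP+ cells, with a line at each mean. Tdp1 is higher and Top3a lower in Aire-KO on both scales, whereas Top2b is higher in CPM and lower in TPM.

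Tdp1, which frees DNA ends from trapped TOP1, was read at 96.8, 87.5 and 88.5 CPM in WT and at 149 and 206 in Aire-KO. All WT libraries lay close together and both Aire-KO libraries stood above them. Tdp1 rose 1.95-fold (log2 0.97, SE 0.152, adjusted p = 0.00183), and the call held on leaving out each library in turn (log2 0.72 to 1.20). TPM gave the same direction, 61.5, 56.6 and 57.2 in WT and 73.1 and 101 in Aire-KO. The retained-intron transcript Tdp1-204 was listed at 0 TPM in all 3 WT libraries and at 9.22 and 12.7 in Aire-KO (adjusted p = 0.0243), while coding transcripts made up 90.8, 92.8 and 96.2% of Tdp1 TPM in WT and 85.6 and 84.7% in Aire-KO.

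Parp1 was read at 70.2, 67.0 and 82.4 CPM in WT and 42.0 and 45.0 in Aire-KO, with no overlap. On counts it fell 1.68-fold (log2 -0.75, SE 0.149, adjusted p = 0.00527). The effective length behind these counts also differed, at 1.90, 1.93 and 2.41 kb in WT and 1.28 and 1.11 kb in Aire-KO, and with the effective-length offset the log2 fold change was 0.06 (adjusted p = 0.782). TPM stood at 40.3, 39.1 and 39.4 in WT and 26.4 and 32.4 in Aire-KO. The coding transcript Parp1-201 fell from 20.7 ± 3.21 to 7.05 ± 0.0884 TPM (log2 -1.17, SE 0.162, adjusted p = 0.0152), and the retained-intron transcript Parp1-204 was at 13.3 ± 2.096 and 15.4 ± 5.82. Of the members' 79 transcripts, 31 were tested and 3 were called (Tdp1-204 higher, Top3b-219 and Parp1-201 lower), against 12.8% of all transcripts tested (5.58% higher and 7.21% lower).

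**Figure D3:**
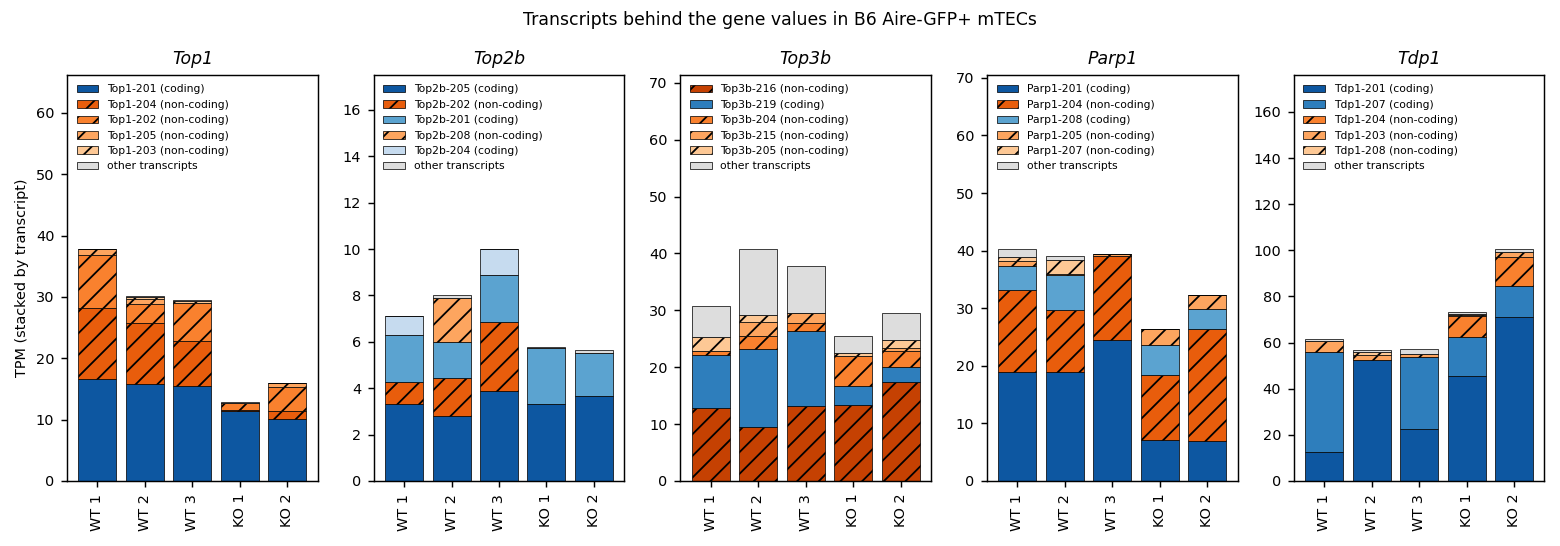
TPM of 5 genes in the Aire-GFP+ libraries, stacked by transcript, with plain blue for protein-coding transcripts, hatched orange for non-coding ones and grey for the remainder. Parp1-201 and Top3b-219 are thinner in both Aire-KO libraries than in the WT libraries, and the Top1 non-coding share is smaller.

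The DNA-PK genes were not called with TMM scaling. Xrcc5 was at 22.0, 12.3 and 16.4 CPM in WT and 12.97 and 11.9 in Aire-KO (log2 -0.44, SE 0.286, adjusted p = 0.253), and Xrcc6 at 43.0, 39.6 and 35.7 against 61.9 and 38.3 (log2 0.34, SE 0.214, adjusted p = 0.23). For both, a library of one genotype lay within the range of the other. Xrcc6 passed the threshold without Aire-KO replicate 2 (log2 0.66, adjusted p = 0.0444). Prkdc gave 19.1, 14.5 and 13.1 CPM in WT and 15.4 and 10.4 in Aire-KO (log2 -0.27, SE 0.28, adjusted p = 0.466).

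Other levels moved with the Aire-KO genotype in these cells. The summed level of 10 dendritic and myeloid marker genes was 1025 to 1426 CPM in WT and 2167 to 2168 in Aire-KO, and Lyz2 alone gave 1059 ± 239 and 2130 ± 6.46 of it. Of the 9 tested, Lyz2 was called higher and 4 were called lower (Adgre1, Itgam, Csf1r and Flt3; Itgam was at 11.3 ± 3.51 and 1.51 ± 0.279 CPM), 8 had a negative log2 fold change and the median was -1.28. The 14 thymocyte markers summed to 99.9 to 133 CPM in WT and 161 to 169 in Aire-KO, with 1 called higher and 2 lower of 12 and a median log2 fold change of 0.05. The 9 fibroblast markers summed to 128 to 178 and 273 to 346 CPM, carried by Dcn (45.0 ± 4.11 and 273 ± 56.6). Of the 8 tested, Dcn and Lum were called higher and Col1a1, Col6a1 and Col3a1 lower, 6 were negative and the median was -1.20, with Col1a1 near 0 in Aire-KO (0.331 ± 0.469). The 6 cTEC markers summed to 286 to 365 in WT and 204 to 217 in Aire-KO, and the 7 B cell markers to 88.9 to 93.4 and 132 to 164. The endothelial markers summed to 40.3 to 49.8 CPM in WT and 47.6 to 49.8 in Aire-KO. In the mTEC identity list, 7 of 15 genes were called higher and 2 lower, led by H2-Ab1 (log2 1.26). The part of these shifts in the members' values was not tested. With library totals alone as the scaling, the median of all genes moved from -0.12 to -0.51 and the calls from 3410 higher of 7410 to 1591 higher of 7841. The count of called members moved from 4 to 6 under that scaling: Tdp1 stayed called, Top2b was not (log2 0.18, adjusted p = 0.482), and Top1 (log2 -0.60, adjusted p = 0.0105), Top2a (log2 -0.86, adjusted p = 0.0332) and Xrcc5 (log2 -0.83, adjusted p = 0.0447) were called lower.

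In mTEChi, Tdp1 was again higher in Aire-KO and Top1 was lower. Over PBS and spermidine together (4 Aire-KO and 4 WT libraries), 2 of the 10 members were called, 1 in each direction, against 22.8% of 18418 genes tested (10.3% higher and 12.5% lower). The median log2 fold change was -0.22 for the members and -0.05 for all genes. Comparisons within PBS and within spermidine use the same libraries as this mean.

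Top1, the target of topotecan, was read at 75.4 and 85.9 CPM in PBS WT, 69.4 and 71.9 in spermidine WT, 59.5 and 53.6 in PBS Aire-KO and 64.6 and 51.8 in spermidine Aire-KO. Every Aire-KO library was under every WT library. The fall was 1.31-fold (log2 -0.39, SE 0.123, adjusted p = 0.0322). Leaving out single libraries gave log2 -0.48 to -0.32 and kept the call in 2 of 8 cases, those without PBS WT replicate 1 and without spermidine Aire-KO replicate 1 (adjusted p 0.0354 to 0.143 over all 8). The call was also lost without the low-count filter (adjusted p = 0.0902) and with limma-voom (adjusted p = 0.0722). Within PBS alone Top1 had log2 -0.51 (SE 0.173, adjusted p = 0.0751), and passed the threshold there with library totals alone (log2 -0.70, adjusted p = 0.0186) and with a filter of at least 5 CPM (log2 -0.54, adjusted p = 0.0483), and within spermidine alone -0.28 (SE 0.175, adjusted p = 0.372).

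Tdp1 was read at 94.3 and 113 CPM in PBS WT and 132 and 130 in PBS Aire-KO, and at 73.3 and 69.7 in spermidine WT and 119 and 93.7 in spermidine Aire-KO. Within each treatment both Aire-KO libraries were above both WT libraries, and across treatments the ranges overlapped. The rise over both treatments was 1.37-fold (log2 0.46, SE 0.116, adjusted p = 0.0111). It missed the threshold without PBS WT replicate 1 (log2 0.40, adjusted p = 0.0556) and without spermidine Aire-KO replicate 1 (log2 0.37, adjusted p = 0.0736). Within spermidine it was 1.49-fold (log2 0.57, SE 0.166, adjusted p = 0.0444), the 1 member called there against 9.11% of all genes (4.77% higher and 4.34% lower), and this call was lost on leaving out any 1 of the 4 libraries (adjusted p 0.0652 to 0.37). It was also lost without any 1 of 9 libraries of other groups in the shared fit, and kept without PBS WT replicate 1 or either topotecan library. Within PBS it was log2 0.34 (SE 0.161, adjusted p = 0.201), and 0 members were called there against 10.3% of all genes (5.21% higher and 5.08% lower). In PBS, edgeR gave 1 member an unadjusted p under 0.05, against 4629 of all 18418 genes, and DESeq2 and limma-voom called 0 members.

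The other members were not called in mTEChi. Parp1 stood at 91.4 and 103 CPM in PBS WT and 111 and 140 in PBS Aire-KO, so both Aire-KO libraries were above both WT libraries (log2 0.37, SE 0.243, adjusted p = 0.375), and at 86.0 and 93.8 against 89.4 and 93.2 with spermidine. Top2b gave log2 -0.42 over both treatments (SE 0.208, adjusted p = 0.172), Top3b 0.30 (SE 0.133, adjusted p = 0.119) and Top3a -0.27 (SE 0.199, adjusted p = 0.367). Without spermidine WT replicate 2, Top3b was called higher (log2 0.47, adjusted p = 0.0204). Top2a ranged from 88.1 to 216 CPM in WT and from 107 to 149 in Aire-KO (log2 -0.27, SE 0.231, adjusted p = 0.446). Xrcc5, Xrcc6 and Prkdc lay between -0.36 and -0.15 on the log2 scale, with adjusted p of 0.444 to 0.537. Over the same libraries the 9 fibroblast markers summed to 404 to 672 CPM in WT and 331 to 367 in Aire-KO, and Col1a1 was at 82.5 ± 24.1 and 2.29 ± 2.07. Of these 9, 4 were called lower and 7 were negative, with a median log2 fold change of -2.02. The 14 thymocyte markers summed to 117 to 183 in WT and 179 to 270 in Aire-KO, but 8 of the 13 tested were negative (median -0.09), with Tcf7 called higher, Dntt called lower and Ptcra at 0 in spermidine Aire-KO. Of the 6 cTEC markers 3 were called lower (median -0.55). Of 14 mTEC identity genes tested, 11 were called higher and 1 lower, led by H2-Ab1 (log2 0.93). The part of these shifts in the members' values was not tested. With library totals alone the median of all genes in this comparison moved from -0.05 to -0.23 and the calls from 1890 higher of 4195 to 1167 higher of 4389. Tdp1 was not called under that scaling (log2 0.28, adjusted p = 0.0914).

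**Figure D4:**
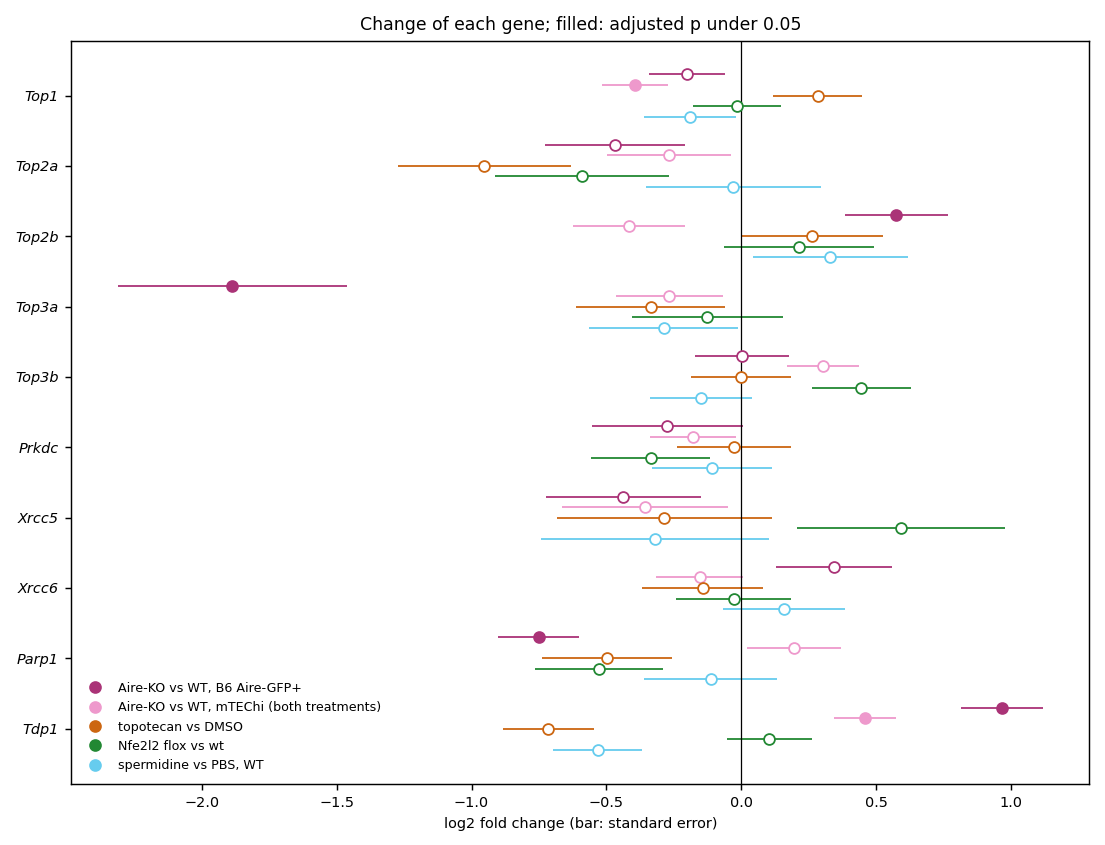
Log2 fold change of each gene in 5 comparisons, with bars of 1 standard error, where filled points have an adjusted p under 0.05 (edgeR). Tdp1 is the gene filled in both Aire-KO comparisons, on the right, and it lies left of 0 with topotecan and with spermidine in WT mice.

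Spermidine, a polyamine, gave no called member in either genotype. In WT mice 0 of 10 members and 0% of genes were called, and in Aire-KO mice 0 members and 0.00543% of genes, while DESeq2 and limma-voom also called 0 members in both. At an unadjusted p under 0.05 there was 1 member in WT, against 709 of 18418 genes, and 0 in Aire-KO, against 759. That member was Tdp1, with both spermidine WT libraries (73.3 and 69.7 CPM) under both PBS WT libraries (94.3 and 113): log2 -0.53, SE 0.165, unadjusted p = 0.00592, adjusted p = 0.999. In Aire-KO mice Tdp1 gave log2 -0.30 (SE 0.162) and Parp1 log2 -0.46 (SE 0.245), both with adjusted p = 1. The difference of the spermidine effects between genotypes was called for 0 members, against 0% of genes (0 members also at an unadjusted p under 0.05, and 0 with DESeq2 and limma-voom). For Tdp1 that difference was 0.23 (SE 0.231).

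Topotecan, given to WT mice, was followed by 0 called members of 10, against 0.652% of all genes called. That share is 120 of 18418 genes, and the count was 45 without DMSO replicate 1, 60 with limma-voom, 411 with DESeq2, 1006 without the low-count filter and 1 when only the 4 libraries of that experiment were fitted. At an unadjusted p under 0.05 there were 2 members, Tdp1 and Top2a, both at lower levels, against 2566 of the 18418 genes. DESeq2 called 1 and limma-voom 0. The topotecan and DMSO libraries did not overlap for 7 of the 10 members, as for 39.7% of all genes tested.

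Tdp1 was read at 61.1 and 69.5 CPM with DMSO and at 39.4 and 40.1 with topotecan, the lowest values of the gene in mTEChi, and the groups did not overlap. The log2 fold change was -0.71 (SE 0.169, unadjusted p = 0.000805, adjusted p = 0.0719). DESeq2 called it (log2 -0.73, adjusted p = 0.029), as did edgeR without the low-count filter (log2 -0.79, adjusted p = 0.0151). The 10 dendritic and myeloid markers summed to 1274 to 1400 CPM with DMSO and 1624 to 1697 with topotecan, although 6 of the 10 had a negative log2 fold change (median -0.04). The fibroblast markers had a median of 0.64, with 1 of 9 negative, and the thymocyte markers 0.44, with 2 of 13 negative. No marker of these 3 lists was called, and their part in the Tdp1 value was not tested.

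Top2a was read at 163 and 276 CPM with DMSO and at 131 and 95.6 with topotecan. The groups did not overlap, although the DMSO libraries lay further apart from each other than the lower of them lay from the higher topotecan library. Its log2 fold change was -0.95 (SE 0.321, unadjusted p = 0.00992, adjusted p = 0.193), and it was called without the low-count filter (adjusted p = 5.68e-06). The cell cycle genes, a list of 29 without Top2a, moved in the same direction: 26 of 29 had a negative log2 fold change and 0 were called, with a median of -0.52 against 0.01 over all genes. They summed to 1478 to 2287 CPM with DMSO and 1300 to 1334 with topotecan, and their part in the Top2a value was not tested.

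Top1 itself was read at 94.9 and 85.2 CPM with DMSO and at 101 and 118 with topotecan, with no overlap (log2 0.28, SE 0.164, adjusted p = 0.473). Parp1 was at 102 and 109 CPM with DMSO and 55.0 and 94.3 with topotecan (log2 -0.50, SE 0.242, adjusted p = 0.38). Top2b, Top3a, Top3b, Prkdc, Xrcc5 and Xrcc6 lay between log2 -0.34 and 0.26, with adjusted p of 0.637 to 0.998. Desi1, whose exons overlap Xrcc6, stood at 16.3 and 16.3 CPM with DMSO and 50.3 and 55.1 with topotecan, while Xrcc6 stood at 30.1 and 44.6 and at 37.4 and 30.3. Aire was also lower with topotecan, at 819 and 641 CPM against 1500 and 1180 (log2 -0.88, SE 0.136, adjusted p = 0.0125). That call was lost without DMSO replicate 1 (log2 -0.70, adjusted p = 0.0784) and with only the 4 libraries of that experiment (log2 -0.88, adjusted p = 0.288).

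The p53 targets, a response often read after DNA breaks, gave 1 gene higher and 1 lower of 26 with topotecan. Plk2, a stress-induced kinase, rose from 74.0 ± 3.57 to 149 ± 5.28 CPM (log2 1.01, SE 0.21, adjusted p = 0.044), and Rprm, a cell cycle inhibitor, fell from 28.8 ± 1.35 to 9.49 ± 4.86 (log2 -1.60, SE 0.321, adjusted p = 0.0406). With limma-voom neither was called (adjusted p = 0.0514 for Plk2 and 0.123 for Rprm). Each call was also lost without some single libraries of other groups in the shared fit. With only the 4 libraries of that experiment neither was called (adjusted p = 0.2 for Plk2 and 0.378 for Rprm). Plk2 was also not called without any 1 of those 4 (adjusted p 0.0895 to 0.173), and Rprm was called only without topotecan replicate 1 among them (adjusted p 0.0168 to 0.135). The median of the list was -0.05, against 0.01 over all genes.

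In Nfe2l2 fl/fl mice, whose floxed gene encodes the oxidative stress regulator NRF2, 0 members and 0% of genes were called against Nfe2l2+/+. DESeq2 and limma-voom called 0 members. With edgeR, 973 of 18418 genes had an unadjusted p under 0.05, among them 2 members. Those were Top3b, at 89.9 and 87.2 CPM in Nfe2l2+/+ and 124 and 117 in Nfe2l2 fl/fl (log2 0.45, SE 0.183, adjusted p = 0.88), and Parp1, at 91.6 and 111 against 54.5 and 85.4 (log2 -0.53, SE 0.238, adjusted p = 0.922). Neither pair of groups overlapped. Xrcc5 was higher in both Nfe2l2 fl/fl libraries (50.5 and 35.5 CPM) than in both Nfe2l2+/+ libraries (31.0 and 25.8), with a log2 fold change of 0.59 (SE 0.386, adjusted p = 1). The groups did not overlap for 6 of the 10 members, as for 33.9% of all genes tested. The cTEC markers summed to 611 to 625 CPM in Nfe2l2+/+ and 828 to 1039 in Nfe2l2 fl/fl, and the fibroblast markers to 286 to 338 and 429 to 432. In each list 0 were called, and their part in the members' values was not tested.

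Ratios within a library do not depend on its scaling, but count ratios keep the effect of transcript length. The count ratio of Top2a, the isoform of dividing cells, to Top2b was 3.15, 3.38 and 3.75 in Aire-GFP+ WT and 2.00 and 1.28 in Aire-KO (log2 difference -1.10, two-sided exact permutation p = 0.1, the smallest this design allows, adjusted p = 0.533 over 8 tests). The ratio of TPM, an alternative chosen after seeing the data, was 4.93, 3.35 and 3.85 in WT and 5.41 and 2.93 in Aire-KO, so the groups overlapped (log2 difference -0.0045, exact permutation p = 1). With topotecan the count ratio was 1.71 and 1.48, against 2.74 and 4.73 with DMSO. In Nfe2l2 fl/fl mice it was 2.57 and 3.42, against 5.94 and 4.59 in Nfe2l2+/+. For both, the exact p was 0.333, the smallest that 2 against 2 libraries allow. In mTEChi the 4 Aire-KO libraries (3.76 to 6.60) lay within the range of the 4 WT libraries (2.63 to 9.67; exact permutation p = 0.657).

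Xrcc6 and Xrcc5 encode the 2 subunits of Ku, and their count ratio was 1.96, 3.21 and 2.17 in Aire-GFP+ WT and 4.77 and 3.21 in Aire-KO (exact permutation p = 0.2). In mTEChi the ratio ran from 0.925 to 4.50, with both Nfe2l2 fl/fl libraries (0.925 and 1.28) under both Nfe2l2+/+ libraries (1.53 and 1.79; exact permutation p = 0.333). Between Aire-KO and WT mTEChi the exact permutation p was 0.857, and between topotecan and DMSO it was 0.667. Adjusted over the 8 ratio tests, the p-values ran from 0.533 to 0.857. Xrcc6 shares exon sequence with Desi1, which was not corrected for in these ratios.

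**Figure D5:**
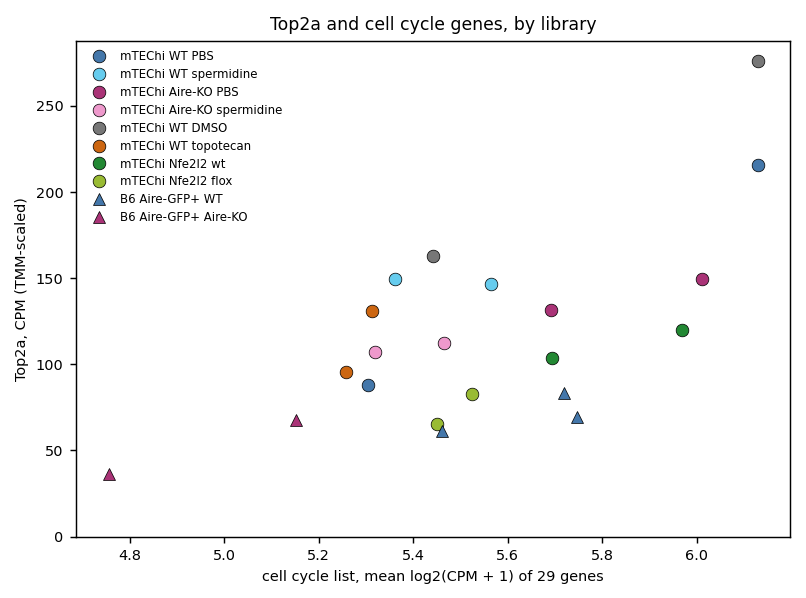
Top2a level (CPM) against the mean log2(CPM + 1) of 29 cell cycle genes without Top2a, 1 point per library, with circles for mTEChi and triangles for Aire-GFP+ cells. The highest Top2a values, 276 CPM (a DMSO library) and 216 CPM (a PBS WT library), are the 2 libraries at the right edge, and the Aire-GFP+ Aire-KO libraries are at the left edge. Close to the right edge, PBS Aire-KO replicate 2 had 149 CPM and Nfe2l2+/+ replicate 1 had 120 CPM.

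Across the 16 mTEChi libraries, which share a fit and come from 3 experiments, the genes most like Top2a in log2 CPM were Anln (Pearson r = 0.843), Ncapd2 (0.808), Trim59 (0.801), Rad54l2 (0.80) and Bub1 (0.796), out of 8778 genes with a mean of at least 20 CPM. Anln encodes a scaffold of the cleavage furrow, Ncapd2 a condensin subunit and Bub1 a mitotic checkpoint kinase. Those most like Top1 were Id1 (0.914), Ist1 (0.908), Ifnar2 (0.905), Cald1 (0.896) and Ifi202b (0.893). Among the members, Top3a and Prkdc gave the highest r (0.78), and Top2b and Tdp1 the lowest (-0.854), followed by Top1 and Tdp1 (-0.755). Xrcc5 and Xrcc6 gave 0.166. These are descriptions over libraries that differ in experiment and treatment.

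The neighbours of the 10 genes in the same pathways were read in the same way. In Aire-GFP+ Aire-KO cells, 2 of 9 other topoisomerase and TOP3-partner genes were called higher and 1 lower: Spo11, which makes meiotic breaks, rose from 7.58 ± 2.67 to 17.7 ± 1.52 CPM, Rmi2, a TOP3A partner, from 6.00 ± 0.995 to 13.5 ± 2.62, and Fmr1 fell from 16.6 ± 2.62 to 8.73 ± 0.233. Of 10 end-joining genes, Xrcc4, the partner of DNA ligase 4, rose (log2 1.41) and Poll, a gap-filling polymerase, fell (log2 -0.95). Of 12 genes of single-strand break repair and the PARP family, 4 rose and 3 fell. The 4 with the smallest p were Polb (log2 1.08), Hpf1, which directs PARP1 to serine (1.52), the scaffold Xrcc1 (-1.06) and Aptx (0.85). Of 15 break-sensing genes 2 rose and 3 fell, led by Rad50 of the MRN complex (140 ± 2.53 to 609 ± 110 CPM, log2 2.12, SE 0.124, adjusted p = 3.07e-05) and H2afx, the H2AX histone (log2 -1.99). Over all genes tested, 19.0% were called higher and 22.3% lower.

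Cell cycle genes gave 1 higher and 14 lower of 29 in the same comparison, with a median log2 fold change of -0.72 against -0.12 over all genes. Kif20a, a mitotic kinesin, fell from 66.3 ± 9.61 to 24.2 ± 3.78 CPM, and the replication genes Mcm6, Mcm2 and Rrm1 had log2 fold changes of -1.23, -1.42 and -1.16. The gene that rose was Pcna (log2 0.81), the sliding clamp of replication. Mki67 was at 52.9, 38.5 and 51.2 CPM in WT and at 49.9 and 56.6 in Aire-KO. Of 26 p53 targets, 6 rose and 7 fell, led by Pmaip1 (log2 -2.71), Dcxr (1.37), Bax (1.31) and Gdf15 (1.38).

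Genes of other AIRE-associated proteins gave 5 higher and 4 lower of 19 in Aire-GFP+ cells, led by the deacetylase Sirt1 (105 ± 6.51 to 289 ± 20.5 CPM, log2 1.46), the elongation kinase Cdk9 (1.29), the remodeller Chd4 (-0.89) and the FACT subunit Ssrp1 (0.56). In mTEChi, over both treatments, where 22.8% of all genes were called (10.3% higher and 12.5% lower), 3 were higher and 0 lower of 19: the acetyltransferase Crebbp (159 ± 9.47 to 312 ± 23.7 CPM, log2 0.97), Sirt1 (log2 1.10) and Ssrp1 (log2 0.34). Rad50 was higher there as well (120 ± 16.7 to 439 ± 26.9 CPM, log2 1.87, SE 0.0976, adjusted p = 4.12e-08), and Mdc1 lower (log2 -0.47), the 2 called of 15 break-sensing genes. The remaining lists gave Spo11 (log2 0.94) as the 1 of 8 other topoisomerase genes tested, Fen1 (1.82) and Hpf1 (0.51) of 12 repair genes, Pcna (0.66) of 29 cell cycle genes, and 0 of 10 end-joining genes. Of 26 p53 targets 8 rose and 5 fell, led by Plk2 (log2 -1.78) and Bax (1.36).

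Outside the Aire-KO comparisons, 0 genes of the end-joining, single-strand repair, break-sensing, other topoisomerase and AIRE-partner lists were called by edgeR with spermidine, with topotecan or in Nfe2l2 fl/fl mice. At an unadjusted p under 0.05, topotecan gave 2 of 10 end-joining genes, 3 of 12 single-strand repair genes, 3 of 15 break-sensing genes and 1 each of the other topoisomerase and AIRE-partner genes. Spermidine in Aire-KO gave 2 AIRE-partner genes, and the difference between the spermidine effects in Aire-KO and WT gave 1 end-joining, 1 break-sensing and 2 AIRE-partner genes. Over all 18418 genes tested, an unadjusted p under 0.05 was reached by 2566 with topotecan and 973 in Nfe2l2 fl/fl mice. Spermidine gave 709 such genes in WT and 759 in Aire-KO, and the difference between its effects gave 619. The cell cycle list gave 0 of 29 called and 1, 4, 7 and 3 at an unadjusted p under 0.05, with median log2 fold changes of -0.31 for spermidine in WT, -0.49 for spermidine in Aire-KO, -0.52 for topotecan and -0.33 for Nfe2l2 fl/fl, against medians of 0.00 to 0.01 in size over all genes.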

How the data were processed

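RNA-seq libraries of sorted mTECs were made by Smart-seq2 with Nextera XT, per the labels' protocols. The mTEChi values are raw counts per gene, and the Aire-GFP+ values are kallisto's estimated counts and TPM per transcript, as the authors deposited them. The submitters' processing notes name STAR, featureCounts, kallisto, TopHat2 2.1.1, SAMtools 1.3.1 and mm10. Estimated counts were summed to symbols with GENCODE M21 (116816 of 118489 transcripts matched; the others held 0.541 to 0.578% of counts) and rounded.

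The 16 mTEChi libraries shared 1 fit and the Aire-GFP+ libraries had their own, with edgeR 4.0.16 in R 4.3.3 (TMM, filterByExpr, quasi-likelihood test, Benjamini-Hochberg over all genes tested, calls at adjusted p under 0.05); steps were checked on simulated data. All 10 members passed the filter. CPM is TMM-scaled, and errors are SD. Named are all members, Aire, Nfe2l2, up to 4 called genes per list with the smallest adjusted p, and the 5 genes most like Top1 and Top2a; the markers of other cells, Mki67 and the overlapping genes were chosen after their values were seen. Members and lists were chosen with earlier results of these data known. Alternatives were other scaling, filters, DESeq2 1.42.0, limma-voom (limma 3.58.1), an effective-length offset, a replicate block, fitting only the libraries of that experiment and leaving out each library; a TPM ratio was added after seeing the data. NOD and F1 samples were not analysed here, and 1 list of other-cell markers is not reported here.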

Additional observations from a re-analysis of the deposited data

Results flagged for a closer look

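Parp1 had opposite values in the Aire-KO comparisons of the 2 cell preparations. Its log2 fold change was -0.75 in Aire-GFP+ cells, where both Aire-KO libraries lay under all 3 WT libraries, and 0.37 in PBS mTEChi, where both Aire-KO libraries lay above both WT libraries. The PBS value was not called with edgeR (adjusted p = 0.375). Such a lack of overlap was common, at 63.9% of all genes tested in Aire-GFP+ cells and 55.3% in PBS mTEChi. The difference between the 2 comparisons was not tested. The sort, the treatment (none or PBS) and the counting method differ between them as well, and cannot be told apart from it. On the effective-length offset the Aire-GFP+ value was 0.06.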

How the results depend on the processing

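Groups held 2 or 3 libraries, and members had 26 to 984 counts per library in mTEChi. Among the alternative values for single members, 954 stayed on their side of the threshold, 30 lost a call, 14 gained one and 2 called members reversed direction. This tally holds leave-one-out fits only for libraries of the groups compared, and none for the difference of the spermidine effects. Fits without a library of another group are not in it, and the spermidine Tdp1 call was lost in several of those. Values that were not called could change sign within the 954. Top2a in PBS Aire-KO mTEChi, for example, ran from log2 -0.62 to 0.67 on leaving out single libraries. The 2 reversals, in Aire-GFP+ Aire-KO cells with the effective-length offset, were Top2b (log2 -0.0582) and Parp1 (log2 0.0626). That offset keeps the read counts and adjusts the fit for the effective length in each library. For PBS Aire-KO, the count of called members went from 0 to 1 with library totals alone and with a mean of at least 5 CPM. For spermidine Aire-KO, it went from 1 to 0 with library totals alone, without the low-count filter, with DESeq2 and with limma-voom, and was 0 to 1 on leaving out single libraries. Over both treatments it went from 2 to 1 with library totals alone, without the filter and with limma-voom, and was 1 to 2 on leaving out single libraries. For topotecan it went from 0 to 2 without the filter and to 1 with DESeq2. In Aire-GFP+ cells it was 3 to 6 over all settings. The log2 difference of the Top2a to Top2b ratio there was -1.42 to -0.77 on leaving out an Aire-KO library and -0.0045 with TPM in place of counts, which was chosen after seeing the data. The cause of these shifts was not tested. Same-numbered libraries did not visibly deviate together (correlations of -0.01 to 0.05), but this check cannot exclude pairing. Where both groups held 2 libraries, it gave only 1 correlation per pair of groups. With the replicate block the called members were 3 in Aire-GFP+ cells, where Top2b had adjusted p = 0.0557. Over both treatments in mTEChi 1 member was called with the block, and Top1 had adjusted p = 0.0502.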
